A study of Mus musculus with 4 samples.

Results

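The transcripts described here are the RefSeq noncoding RNAs of the array other than the small nucleolar, small nuclear and ribosomal RNAs, the small nucleolar RNA hosts and a few abundant small RNAs, which were left out by symbol. The scanner files hold 2477 probes with a RefSeq noncoding accession, 41 of these carried a symbol that was left out, and of the 2436 that remained 1122 (46.1%) had a signal well above background on at least 1 of 4 arrays. These 1122 probes are the members, from 56605 non-control probes, of which 65.5% met the same condition. A gene table named 1074 members for 1003 genes, and 61 genes had more than 1 probe. The other 48 members have an accession that the table does not hold, so it could not be checked whether their symbols are among those left out. Since the members were selected on a signal above background, that they are detected is not a result.

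RNA came from mouse bone marrow cultures of 2 cell types and 2 genotypes, with 1 array for each of the 4 combinations. Marrow cells became macrophages in 4 days with M-CSF (25 ng/ml), which this lineage needs to survive and grow, and osteoclasts were then formed over 3 more days with the same M-CSF and with RANKL (50 ng/ml), the cytokine that drives macrophages to fuse into bone-resorbing cells. The mice were wild-type or LysM-St18flox, a name that by convention stands for a loxP-flanked St18 gene, which encodes a zinc finger transcription factor, and Cre recombinase made under the lysozyme M promoter in myeloid cells. How many mice gave marrow, whether it was pooled, and whether the wild-type mice were littermates was not found in the labels. RANKL and the added days in culture go together, and in bulk RNA fewer cells of a type and less RNA per cell cannot be told apart.

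Long noncoding RNAs are transcripts without a long open reading frame that often act where they are made, on chromatin or on nearby genes. Opposite-strand transcripts are read from the other strand of a coding gene, and transcribed pseudogenes are copies of coding genes that no longer make the full protein and can be close to their parent in sequence. Several noncoding RNAs, among them the lincRNA encoded beside Ptgs2 and Morrbid, are known regulators of inflammatory genes and of myeloid cell survival.

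A level is the log2 of the processed signal minus the 75th percentile of its array, so that 0 is that percentile. Differences are taken only between arrays. Across probes, levels serve only to sort bright from dim signals and are not read as abundance. Where 4 levels are listed without their arrays, the order is wild-type macrophage, wild-type osteoclast, LysM-St18flox macrophage, LysM-St18flox osteoclast. A difference of at least 1 on this scale, which is 2-fold, was counted, which ranks sizes and tests nothing. With 1 array per group no difference has a replicate check and no p-value was computed, and having 4 arrays is what limits precision. Spots of the same probe differed by a median SD of 0.031 to 0.042 within an array, over 283 probes printed 10 times and well above background on every array, and by 0.106 to 0.182 over the 5 such probes that were dim. The 283 probes give an SD of 0.050 for a difference between arrays, from spots alone, and none was computed for the dim ones.

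The 5' ends of 6 of the transcripts that differed most between osteoclasts and macrophages in both genotypes are shown first, as examples of the loci involved, with 3 that were higher and 3 that were lower in osteoclasts. Each runs from 250 bases before to 50 bases after the transcript start given by RefSeq for build GRCm38.p6. The higher ones lie at chr13:80940153-80940452 on the plus strand (5430425K12Rik), chr16:11779452-11779751 on the plus strand (4833415N18Rik) and chr8:57487713-57488012 on the plus strand (2500002B13Rik, the first of 2 starts in the table). The lower ones lie at chr19:11050517-11050816 on the minus strand (AW112010), chr13:97559750-97560049 on the plus strand (Gm5086) and chrX:96239676-96239975 on the plus strand (F630028O10Rik). Capitals mark the only match found to a motif searched for.

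5430425K12Rik: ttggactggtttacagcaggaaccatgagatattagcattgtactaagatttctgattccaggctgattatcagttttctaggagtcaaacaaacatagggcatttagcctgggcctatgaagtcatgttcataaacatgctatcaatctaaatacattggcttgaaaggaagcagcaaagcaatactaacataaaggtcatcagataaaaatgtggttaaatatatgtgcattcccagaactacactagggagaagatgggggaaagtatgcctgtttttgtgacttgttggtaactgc
4833415N18Rik: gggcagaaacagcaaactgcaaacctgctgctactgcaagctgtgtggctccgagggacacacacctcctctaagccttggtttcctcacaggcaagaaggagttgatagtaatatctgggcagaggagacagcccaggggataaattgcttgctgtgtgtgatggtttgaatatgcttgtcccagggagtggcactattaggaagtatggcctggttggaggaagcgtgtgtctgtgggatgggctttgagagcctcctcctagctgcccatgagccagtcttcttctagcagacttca
2500002B13Rik: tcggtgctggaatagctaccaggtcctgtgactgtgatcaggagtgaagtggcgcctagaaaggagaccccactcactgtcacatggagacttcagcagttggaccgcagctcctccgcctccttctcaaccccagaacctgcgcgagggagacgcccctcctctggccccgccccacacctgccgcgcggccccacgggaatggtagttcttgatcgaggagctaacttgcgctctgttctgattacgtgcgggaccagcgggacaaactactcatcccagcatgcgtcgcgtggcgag
AW112010: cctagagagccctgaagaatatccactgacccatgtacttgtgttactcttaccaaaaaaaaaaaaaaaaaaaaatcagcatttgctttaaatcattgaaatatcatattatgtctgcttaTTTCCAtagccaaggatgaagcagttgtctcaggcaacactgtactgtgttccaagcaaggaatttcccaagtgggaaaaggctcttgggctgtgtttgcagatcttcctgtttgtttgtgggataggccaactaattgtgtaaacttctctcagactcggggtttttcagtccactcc
Gm5086: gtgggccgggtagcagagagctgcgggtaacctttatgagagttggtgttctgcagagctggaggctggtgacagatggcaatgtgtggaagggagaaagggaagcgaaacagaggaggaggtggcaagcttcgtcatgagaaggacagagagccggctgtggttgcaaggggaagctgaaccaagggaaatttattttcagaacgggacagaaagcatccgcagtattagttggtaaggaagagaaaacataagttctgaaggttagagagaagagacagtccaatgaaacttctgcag
F630028O10Rik: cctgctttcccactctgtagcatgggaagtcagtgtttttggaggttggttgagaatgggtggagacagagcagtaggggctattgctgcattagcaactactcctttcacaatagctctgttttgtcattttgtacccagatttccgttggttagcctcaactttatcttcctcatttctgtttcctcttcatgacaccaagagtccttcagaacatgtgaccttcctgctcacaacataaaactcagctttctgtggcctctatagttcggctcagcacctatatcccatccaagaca

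The motifs searched for on both strands were TGANTCA (bound by AP-1), GAGGAAGT (bound by PU.1, the regulator of the myeloid lineage) and TGGAAA (the core bound by NFAT proteins, of which Nfatc1 drives osteoclast formation). AW112010 held TGGAAA, on the other strand, with its first base at -129 from the start, and the other 5 windows held none of the 3. Of 669 member promoters in the table, 8.82% held TGANTCA, 3.74% held GAGGAAGT and 21.7% held TGGAAA, against 7.93%, 3.28% and 21.5% of all 27025 promoters of the same length. A match is a string of letters and not evidence of binding. The windows differed in base composition: that of 2500002B13Rik had 61.3% G and C and 21 CpG, that of 5430425K12Rik 38.3% and 0 CpG, and the other 4 had 1 to 7 CpG.

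The members were mostly long noncoding RNAs (852 probes) and transcribed pseudogenes (175), with 39 noncoding variants of coding genes, 3 relatives of the RNase P RNA, 3 other RNAs and 2 pseudogenes of noncoding RNAs among the rest. By name, 536 were RIKEN clones, 246 predicted genes, 64 opposite-strand transcripts, 51 pseudogenes or related sequences and 5 microRNA hosts. Well above background were 954 and 870 members in wild-type macrophages and osteoclasts and 1035 and 952 in the LysM-St18flox ones, and 813 were so on all 4 arrays. Of 37088 probes of any kind that passed on at least 1 array, the counts in that order were 33895, 32406, 34916 and 33990, and 30895 on all 4. Most members were dim: the median of the mean level was -3.04, against -1.30 over all probes well above background on at least 1 array. Of the 133 members detected on 1 array, 62 and 42 came from LysM-St18flox macrophages and osteoclasts, and 21 and 8 from the wild-type ones. No such count was made over all probes. The lowest signal counted as well above background was at -5.56, -5.50, -5.32 and -4.89 for LysM-St18flox macrophages and osteoclasts and wild-type macrophages and osteoclasts, so the array with the fewest members had the highest limit, and the part of this limit in the counts was not tested. At the edge of the rule, the brightest value of the members detected on 1 array had a median of -4.91, and that of the 1314 probes left out had a median of -6.98 and reached -4.71.

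The few members with the highest signals differed little between the cultures, which did not hold for all bright members. Of members with a mean level of 0 and above, 7.43% passed 2-fold in the wild-type osteoclast comparison and 14.4% in the LysM-St18flox one. For all probes at that level the shares were 7.79% and 17.7%. The highest mean signal belonged to probe A_51_P338803, whose accession the gene table does not hold and which was chosen after its values were seen, at 9.56, 9.34, 8.77 and 8.84. Gm5523 stood at 8.37 and 8.21 in the wild-type macrophages and osteoclasts and at 7.93 and 8.11 in the LysM-St18flox ones. Gm6548 stood at 7.60, 7.65, 7.53 and 7.74 in the same order. Of the 8 named members with the highest mean signal, 7 are transcribed pseudogenes, and none of the 8 differed by 2-fold in any of the 4 comparisons. Signal strength also depends on the probe, so this order is not one of abundance. The exception by class, Gm20753, had the widest range, from 6.44 in LysM-St18flox macrophages to 7.44 in wild-type osteoclasts. Whether such a probe reads the pseudogene or its abundant coding parent cannot be told apart in these files.

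Wild-type osteoclasts differed from wild-type macrophages in about 1 member in 10, in both directions. At least 2-fold higher were 54 of 983 members measured (5.49%), beside 4.77% of all probes, and at least 2-fold lower were 47 (4.78%), beside 5.49% of all probes, so the shares were near the background. The median difference of the members was 0.06 and that of all probes 0.05. Among these, 14 of the higher and 17 of the lower members were dim on 1 of the arrays, and their differences are bounds. The split into higher and lower depended on the scaling, with 45 higher and 54 lower when arrays were centred on their medians.

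In LysM-St18flox cells the same comparison gave more members past 2-fold, as it did for all probes. Higher in osteoclasts were 84 of 1090 members (7.71%, beside 9.3% of all probes), 22 of them as bounds, and lower were 124 (11.4%, beside 11.0%), 42 as bounds. The median difference was -0.13 for the members and -0.03 for all probes, and with arrays centred on their medians 103 members were higher and 94 lower. Normexp background correction, which draws dim signals together, left 48 higher and 57 lower.

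**Figure D1:**
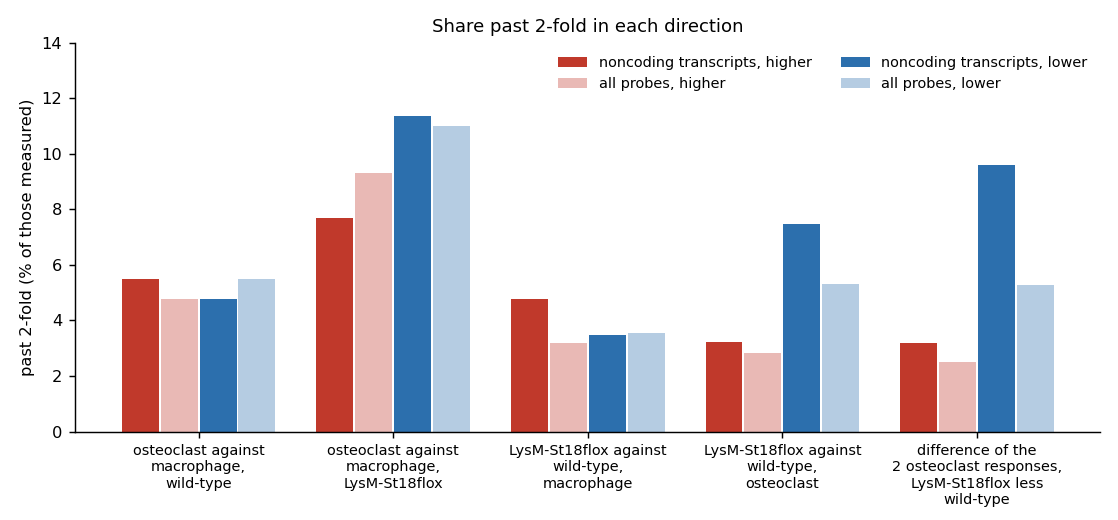
Share of noncoding transcripts (full colour) and of all probes (pale) at least 2-fold higher (red) or lower (blue), in percent of those measured, for each comparison and for the difference of the osteoclast responses. The bars of noncoding transcripts lie near those of all probes except for responses lower in LysM-St18flox, 9.59% against 5.29%.

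Of the members past 2-fold in wild-type cells and measured in both, 71 were past 2-fold the same way in LysM-St18flox cells, 31 higher and 40 lower. They are 77.2% of the 92 wild-type calls and 40.3% of the 176 LysM-St18flox calls, beside 82.8% and 41.2% over all probes. None of the 951 members measured in both went past 2-fold in opposite directions, beside 22 of 33943 probes of any kind. Over the 813 members well above background on all 4 arrays the differences had Pearson's r of 0.72 and Spearman's rho of 0.61, a description across transcripts that are not independent and that share 1 slide. All probes had r of 0.82.

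**Figure D2:**
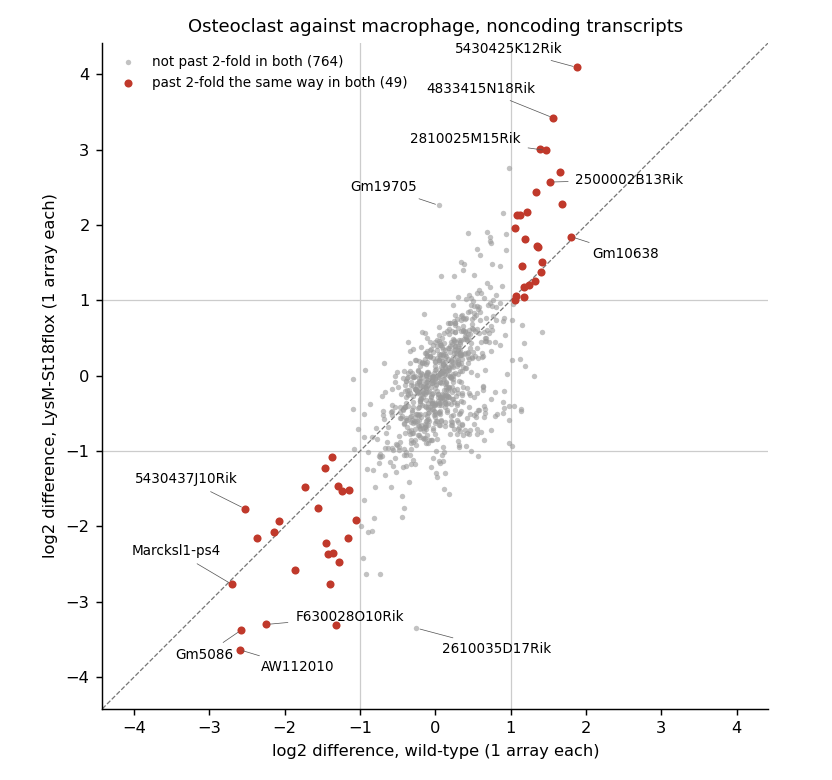
Osteoclast minus macrophage difference (log2) in LysM-St18flox cells (vertical) against wild-type cells (horizontal), 1 point for each of 813 members well above background on all 4 arrays, with grey lines at 2-fold and equality dashed. The 49 red members are past 2-fold the same way in both genotypes, 25 higher and 24 lower, and 5430425K12Rik and 4833415N18Rik at the top lie well above the dashed line.

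The long noncoding RNA 4833415N18Rik had one of the largest increases in osteoclasts. It stood at 0.44 and 2.01 in the wild-type macrophages and osteoclasts and at 0.21 and 3.63 in the LysM-St18flox ones. Both osteoclast arrays were above both macrophage arrays, by 2.95-fold in wild-type and 10.7-fold in LysM-St18flox cells. 2810025M15Rik, which overlaps the Ras GTPase activator gene Rasal2, stood at 1.73, 3.20, 1.15 and 4.14 in the same order, which is 2.77-fold and 7.95-fold higher in osteoclasts. Rasal2 itself was higher in osteoclasts by 1.96 and 3.03 on the log2 scale, so gene and overlapping transcript moved together. 2500002B13Rik, beside Sap30, stood at -0.16, 1.36, -0.59 and 1.98, while Sap30 differed by -0.07 and 0.49.

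The largest measured difference in LysM-St18flox cells was that of the long noncoding RNA 5430425K12Rik. It stood at -4.30 and -2.43 in the wild-type macrophages and osteoclasts and at -5.47 and -1.38 in the LysM-St18flox ones, which is 3.67-fold and 17.1-fold higher in osteoclasts. Its macrophage levels are close to the limit of detection, so these folds rest on dim signals, and the wild-type difference of 1.88 became 0.88 with normexp correction. 1700086L19Rik stood at -1.66, -0.27, -4.23 and -1.22, higher in osteoclasts by 1.39 and 3.01. Gm10638, which overlaps the ubiquitin ligase gene Siah1a, was higher in osteoclasts by nearly the same amount in both genotypes, 1.80 and 1.85 (0.84 in wild-type cells with normexp correction), while Siah1a differed by 0.28 and 0.37.

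Lower in osteoclasts was AW112010, an interferon-induced transcript of macrophages that is known to encode a short protein. It stood at -0.08 and -2.68 in the wild-type macrophages and osteoclasts and at 1.23 and -2.41 in the LysM-St18flox ones. Both macrophage arrays were above both osteoclast arrays, by 6.06-fold and 12.4-fold. F630028O10Rik, which lies beside the macrophage receptor gene Vsig4, stood at 4.14, 1.90, 4.36 and 1.06, which is 4.74-fold and 9.86-fold lower in osteoclasts. Vsig4 itself was dim, at -4.74, -5.95, -6.33 and -6.72, and gave no measured difference to set beside it. Gm5086 stood at -1.37, -3.95, -1.67 and -5.05, 5.98-fold and 10.4-fold lower, although its nearest coding gene Enc1 was higher in osteoclasts by 1.95 and 2.04. Also lower in both genotypes were 4933412E12Rik (-2.15 and -2.07), D5Ertd605e (-2.36 and -2.16) and 5430437J10Rik (-2.53 and -1.76).

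Some members were measurable in macrophages alone. Miat, a nuclear long noncoding RNA, stood at -0.96 in wild-type and -2.30 in LysM-St18flox macrophages and was not well above background in either osteoclast array, so that it was at least 15.2-fold lower in wild-type osteoclasts and at least 9.2-fold lower in the others. 4933400A11Rik was at least 7.31-fold and at least 8.09-fold lower in the same way. BC021767 was well above background on 3 arrays, at -2.79, -1.41 and -5.37 in wild-type macrophages and LysM-St18flox macrophages and osteoclasts, and was at least 4.31-fold lower in wild-type and 15.6-fold lower in LysM-St18flox osteoclasts. In the other direction, C4bp-ps1, a pseudogene of a complement regulator, was at least 3.25-fold higher in wild-type osteoclasts and at least 9.14-fold in the others, and Gm16712 at least 3.44-fold and at least 9.41-fold. With normexp correction the wild-type difference of each of C4bp-ps1 and Gm16712 was under 2-fold, at 0.61 and 0.55.

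**Figure D3:**
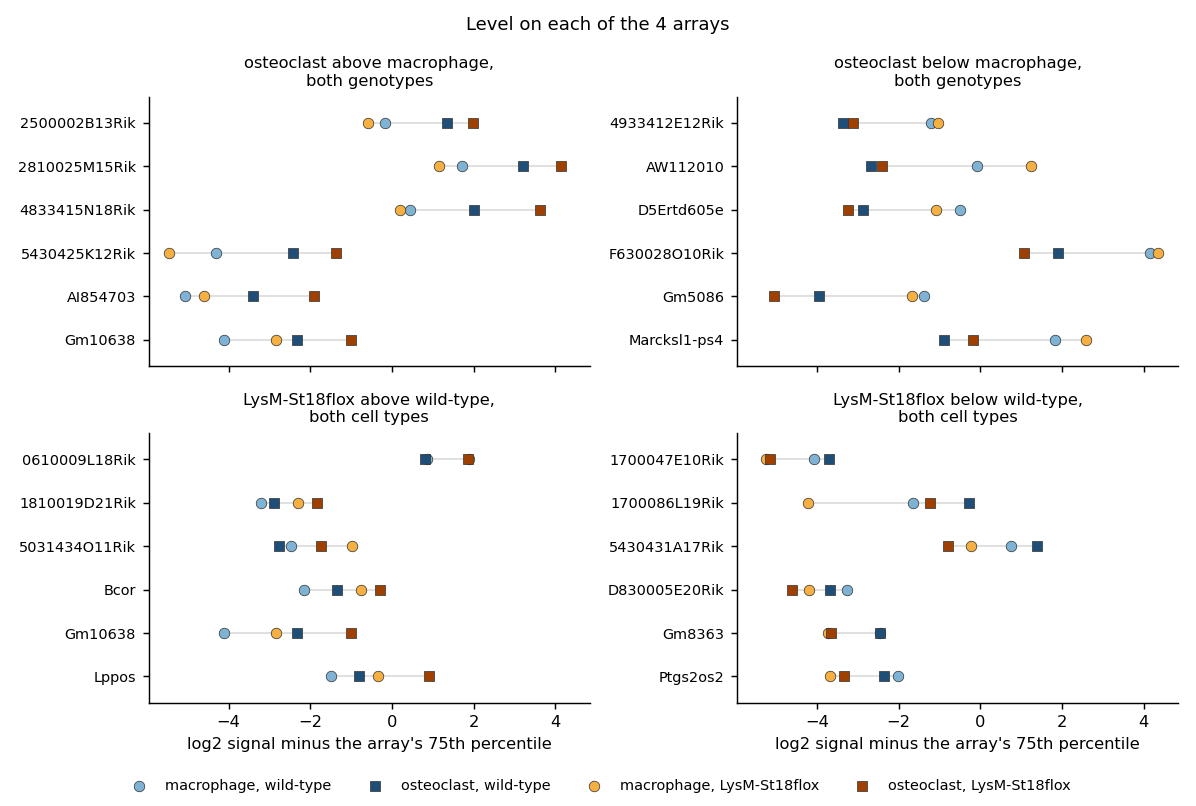
Level of named members on each of the 4 arrays, as log2 signal minus the 75th percentile of the array, with circles for macrophages, squares for osteoclasts, blue for wild-type and orange to brown for LysM-St18flox. In the upper panels squares and circles do not overlap, and in the lower panels each LysM-St18flox symbol lies on the same side of the wild-type symbol of its cell type.

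LysM-St18flox macrophages differed from wild-type macrophages in fewer members. At least 2-fold higher were 51 of 1065 (4.79%, beside 3.2% of all probes), 17 as bounds, and lower were 37 (3.47%, beside 3.56%), 8 as bounds. The median was 0.03 for the members and -0.04 for all probes. The higher share was above that of all probes by less than 2 percentage points, and normexp correction left 10 higher and 20 lower.

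The long noncoding RNA 2610035D17Rik had the largest measured increase in LysM-St18flox macrophages. 4930593C16Rik, well above background there alone and read from 1 spot per array, was at least 6.76-fold higher. On the log2 scale this bound is 2.76, and its lowest value under the alternatives was 0.79, which is under 2-fold. 2610035D17Rik stood at -4.33 and -4.58 in the wild-type macrophages and osteoclasts and at -1.74 and -5.09 in the LysM-St18flox ones. The LysM-St18flox macrophage array alone was high, 5.99-fold above wild-type (2.58 on the log2 scale, and 1.31 with normexp correction). E130102H24Rik had the same shape, at -2.93, -3.67, -0.78 and -3.42, with LysM-St18flox macrophages 4.45-fold above wild-type (2.15, and 1.45 with normexp correction). H2-Q5, a pseudogene of the class I histocompatibility genes, stood at -0.59, -0.04, 1.04 and 0.81 and was 3.1-fold higher in LysM-St18flox macrophages, and its relatives are near copies that a probe may not tell apart. Others were 5031434O11Rik (1.50), Gm16894 inside Il1r2 (1.43, with Il1r2 at 0.79) and a noncoding variant of the corepressor gene Bcor (1.40). With normexp correction Gm16894 was at 0.56 and Bcor at 0.94, both under 2-fold.

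Lower in LysM-St18flox macrophages was 1700086L19Rik, by 5.94-fold, with the levels given above. Ptgs2os2, a transcript whose nearest coding gene is the cyclooxygenase gene Ptgs2, more than 10 kb away, and that regulates inflammatory genes in macrophages, stood at -2.01 and -2.35 in the wild-type macrophages and osteoclasts and at -3.68 and -3.34 in the LysM-St18flox ones. It was lower in LysM-St18flox cells of both kinds, by 3.17-fold in macrophages and 1.99-fold in osteoclasts, and Ptgs2 differed the same way, by -2.15 and -0.89 on the log2 scale. Rptoros, read opposite to the mTOR complex gene Rptor, stood at -1.14, -0.16, -2.87 and -0.12, 3.33-fold lower in LysM-St18flox macrophages, with Rptor at -0.84. The relatives of the RNase P RNA, which matures transfer RNAs, were also lower there: Rprl1 (named after its value was seen) by -1.47, Rprl2 by -1.52 and Rprl3 by -1.61. They are near copies, so their probes may read the same RNA and count as 1 observation.

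In osteoclasts the genotypes differed mostly toward lower values in LysM-St18flox cells. At least 2-fold lower were 74 of 989 members (7.48%, beside 5.31% of all probes), 24 as bounds, and higher were 32 (3.24%, beside 2.82%), 6 as bounds. The medians were -0.12 for the members and -0.07 for all probes. This direction turned with the scaling, since centring on medians gave 63 higher and 40 lower members and quantile normalization 48 and 45. The lower members were dim ones: 56 of the 74 had a mean level below -3, where 12.8% of members and 12.1% of all probes were lower.

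**Figure D4:**
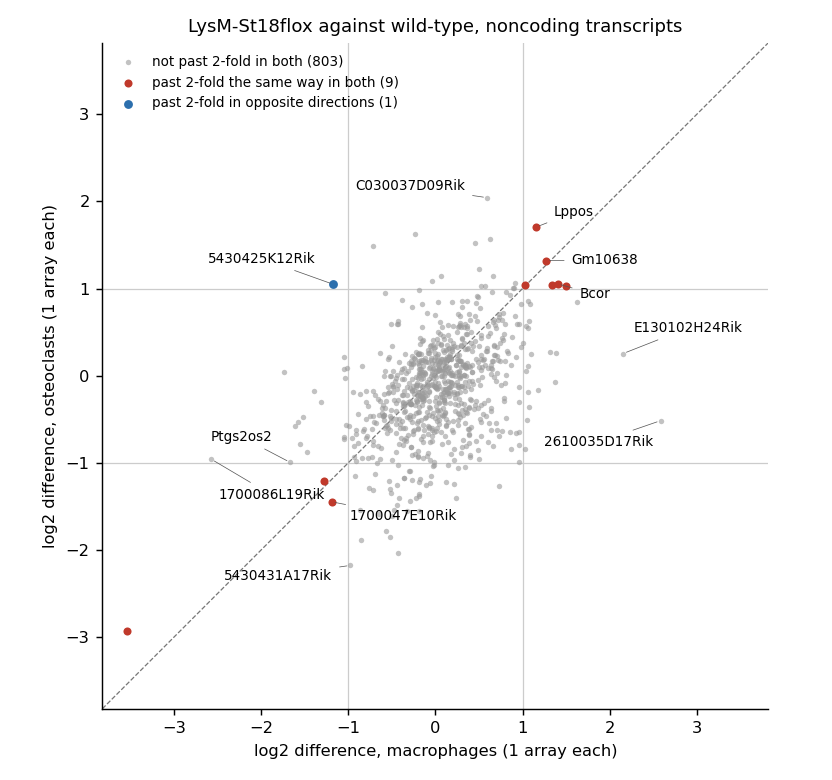
LysM-St18flox minus wild-type difference (log2) in osteoclasts (vertical) against macrophages (horizontal), 1 point for each of 813 members well above background on all 4 arrays, with grey lines at 2-fold and equality dashed. The 9 red members are past 2-fold the same way in both cell types, 6 higher and 3 lower, and the blue one, 5430425K12Rik, is past it in opposite directions.

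C030037D09Rik, beside the RNA-binding protein gene Msi2, had the largest measured increase in LysM-St18flox osteoclasts. It stood at -5.20 and -4.76 in the wild-type macrophages and osteoclasts and at -4.61 and -2.72 in the LysM-St18flox ones, which is 4.12-fold above wild-type osteoclasts (0.79 on the log2 scale with normexp correction). Msi2 was higher by 1.37 in the same comparison. Firre, an X-linked RNA that organises nuclear chromatin, stood at 0.62, 1.84, 1.24 and 3.41 and was 2.98-fold higher in LysM-St18flox osteoclasts. It was also higher in osteoclasts than in macrophages of each genotype, by 1.22 and 2.17. 4833415N18Rik (1.62), Lppos (1.70) and Gm19705 (1.49) were higher as well.

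Among the members lower in LysM-St18flox osteoclasts, 5430431A17Rik stood at 0.74 and 1.39 in the wild-type macrophages and osteoclasts and at -0.23 and -0.78 in the LysM-St18flox ones, a difference of 4.52-fold in osteoclasts. 9430078K24Rik stood at 1.51, 2.02, 0.65 and 0.13, 3.7-fold lower. In both, each LysM-St18flox array was below both wild-type arrays. 4933438K21Rik (-1.55), 1700030M09Rik (-1.49) and a noncoding variant of the sodium-calcium exchanger gene Slc8a1 (-1.58, and -0.99 with normexp correction) were lower too. The probe of 4933411E08Rik stood at -4.25 and -2.14 in wild-type macrophages and osteoclasts and was not well above background on either LysM-St18flox array, which is at least 2.49-fold and at least 10.3-fold lower.

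Between genotypes, the same direction past 2-fold in both cell types held for 13 members, 6 higher and 7 lower, which is 21.7% of the 60 macrophage calls and 14.3% of the 91 osteoclast calls measured in both, beside 22.9% and 19.1% over all probes, and r over 813 members was 0.43, against 0.41 over all probes. Lppos, read opposite to the adhesion gene Lpp, was higher in LysM-St18flox cells by 1.15 and 1.70, and Lpp itself by 0.53 and 0.86. Gm10638 was higher by 1.27 and 1.32, and 0610009L18Rik by 1.03 and 1.04. Gm8363 was lower by -1.28 and -1.20, and 1700047E10Rik by -1.19 and -1.45. Normexp correction brought both values of Gm10638 (0.37 and 0.93) and of 1700047E10Rik (-0.68 and -0.87) under 2-fold, and the osteoclast values of 0610009L18Rik (0.99) and Gm8363 (-0.89). The osteoclast value of Gm8363 was also under 2-fold with centring on medians (-0.95) and in the authors' deposited table (-0.97), as was the macrophage value of 1700047E10Rik in that table (-0.92). The largest shared difference belonged to probe A_55_P1977776, whose accession the gene table does not hold, chosen here after its values were seen: it stood at 0.78 and 1.19 in wild-type macrophages and osteoclasts and at -2.76 and -1.74 in LysM-St18flox cells.

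The osteoclast response (osteoclast minus macrophage) of LysM-St18flox cells, set against that of wild-type cells, was at least 2-fold lower for 78 of 813 members (9.59%, beside 5.29% of all probes) and at least 2-fold higher for 26 (3.2%, beside 2.51%). The median difference was -0.11 for members and -0.01 for all probes. The excess of lower responses lay among dim probes, and there all probes showed it too: below a mean level of -3 the share was 19.6% of 260 members and 12.9% of all probes, between -3 and 0 it was 6.25% and 5.74%, and above 0 it was 2.49% and 1.65%. The split depended on the scaling: centring on medians gave 34 higher and 35 lower members and normexp correction 14 and 18, while quantile normalization gave 27 and 47, no filter 71 and 173, and values from the authors' deposited table gave 26 and 41. Among 81 members whose mean response over both genotypes was at least 2-fold, 67 (82.7%) had the larger response in LysM-St18flox cells, beside 87.7% of the 3783 probes of any kind chosen in the same way, and the median excess was 0.90, beside 0.65. Markers of osteoclasts moved with this: 8 of 10 had a genotype difference in osteoclasts of at least 2-fold upward, from Nfatc1 at 1.02 to Oscar at 2.30, with Ctsk at 0.29 and Acp5 at -0.29, and their part in the result was not tested.

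5430425K12Rik (2.22), Gm19705 (2.21), 4833415N18Rik (1.86) and Rptoros (1.78) had the responses most raised in LysM-St18flox cells on the log2 scale. Gm19705, whose nearest coding gene is Zfp281, stood at -2.31 and -2.27 in wild-type macrophages and osteoclasts and at -3.03 and -0.77 in LysM-St18flox cells, so that the wild-type arrays were level and the LysM-St18flox arrays were apart. At the other end, 2610035D17Rik differed by -3.10, AU022793 by -1.99, 1700018B24Rik by -1.95, E130102H24Rik by -1.90 and 0610039H22Rik by -1.86. AU022793 stood at -1.17 and -2.48 in wild-type macrophages and osteoclasts and at -0.44 and -3.75 in LysM-St18flox cells, lower in osteoclasts of both.

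The 5 lists of known noncoding RNAs held 34 members. Past 2-fold were 15.2% of those measured in the wild-type and 17.6% in the LysM-St18flox osteoclast comparison (10.3% and 20.3% of all probes), and 17.6% and 9.38% for the genotype in macrophages and osteoclasts (6.76% and 8.13%), that is 3 to 6 RNAs in each. Of 5 RNAs of X inactivation, 4 were members and Firre alone was past 2-fold. Xist, which coats the inactive X chromosome, stood at 0.18, -0.07, -0.40 and -0.52 on the arrays in the same order, a range smaller than 2-fold, and Jpx at -2.57, -2.62, -2.41 and -2.75. Of 15 nuclear and housekeeping RNAs 11 were members. Norad, which binds Pumilio proteins, stood at 5.68, 5.64, 5.47 and 5.42, Neat1, the scaffold of paraspeckles, at 1.35, 1.56, 0.78 and 0.98, and Tug1 at -0.08, -0.10, -0.02 and -0.10. None of these 3 differed by 2-fold, whereas Crnde was higher in osteoclasts by 1.07 and 1.06, Epb41l4aos by 1.18 in wild-type cells and 0.44 in LysM-St18flox cells, and Miat lower as given above. The differences of Crnde were 0.86 and 0.96 with normexp correction.

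Of 11 imprinted noncoding RNAs 7 were members. Airn, the transcript that silences Igf2r on the paternal chromosome and overlaps it, stood at 0.93 in wild-type macrophages and at 1.95 in the osteoclasts of either genotype, which were higher than their macrophages by 1.03 and 0.95, and Igf2r was higher by 1.04 and 1.47. The wild-type difference of Airn was 0.96 with centring on medians. A second, dimmer probe of Airn passed the background limit on 2 arrays. It was higher in LysM-St18flox than wild-type macrophages and osteoclasts by at least 0.90 and at least 0.94, so the probes disagreed there. Its osteoclast minus macrophage difference in LysM-St18flox cells was 0.61. Kcnq1ot1 and Peg13 differed by less than 1 in every comparison. Meg3 and Mirg, of the same imprinted cluster, were dim, and their differences between genotypes in macrophages, 1.06 and -1.03, had opposite signs. That of Meg3 became 0.04 and that of Mirg -0.69 with normexp correction.

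Of 16 RNAs in the list named for macrophages and inflammation 8 were members. The list is mixed and includes Hottip and Hoxa11os, whose nearest coding genes are Hoxa13 and Hoxa11. Morrbid, which lengthens the life of myeloid cells by restraining the death gene Bcl2l11, stood at 1.01 and 1.56 in the wild-type macrophages and osteoclasts and at 0.97 and 2.65 in the LysM-St18flox ones. The LysM-St18flox osteoclast array alone was high, 2.13-fold above wild-type, and Bcl2l11 differed by 0.21 in that comparison. A second, dimmer probe of Morrbid stood at -2.02 in wild-type and -1.93 in LysM-St18flox osteoclasts and gave a difference of 0.09, so the probes disagreed there. In macrophages the second probe stood at -2.41 in wild-type and -3.42 in LysM-St18flox cells. Its difference there was -1.01, and that of the first probe was -0.04. Both probes were higher in osteoclasts than in macrophages of LysM-St18flox cells, by 1.68 and 1.49. Mirt1 was lower in LysM-St18flox osteoclasts than macrophages by -1.60, and Dleu2, Dnmt3aos, Hottip and Hoxa11os did not pass 2-fold in any comparison. Of 10 microRNA hosts 4 were members. Mir100hg stood at -2.82, -2.14, -4.22 and -2.32, lower in LysM-St18flox macrophages by -1.39, and Mir99ahg was higher there by 1.06, while Mir22hg and Carmn stayed under 2-fold in the 4 comparisons. With normexp correction Mirt1 was at -0.82 and Mir100hg at -0.99.

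Differences of members were compared with those of the nearest coding gene in the gene table, for 965 loci, of which 400 overlap a coding gene, 265 have one within 10 kb and 300 lie farther away. In LysM-St18flox cells the osteoclast differences of transcript and gene had r of 0.33 over 238 overlapping pairs, 0.24 over 166 within 10 kb and -0.07 over 146 farther pairs, and in wild-type cells 0.30, 0.19 and 0.13. For the genotype difference r was 0.27, 0.24 and 0.00 in macrophages and 0.22, 0.12 and 0.07 in osteoclasts. Each r describes pairs measured on the same arrays, and the differences between these values were not tested. Of 37 overlapping transcripts past 2-fold in the LysM-St18flox osteoclast comparison, 31 had the sign of the gene and 11 had a gene past 2-fold the same way, and of 23 farther ones 10 had its sign. For the genotype difference in osteoclasts the order was the other way, with 10 of 18 overlapping and 12 of 17 farther transcripts having the sign of the gene. For the osteoclast minus macrophage difference, 0610039H22Rik, inside Msi2, was at 0.97 in wild-type and -0.89 in LysM-St18flox cells. Msi2 was at 2.46 and 3.62, so the signs were opposite in LysM-St18flox cells and the same in wild-type cells.

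For opposite-strand transcripts and their sense genes, over 38 to 43 pairs r was 0.18 for the osteoclast difference in wild-type cells and 0.30 in LysM-St18flox cells, and 0.57 and 0.34 for the genotype difference in macrophages and osteoclasts. Of pairs chosen after their values were seen, Zeb2os, opposite the transcription factor gene Zeb2, stood at -1.22 and -2.58 in the wild-type macrophages and osteoclasts and at -0.18 and -2.53 in the LysM-St18flox ones, and Zeb2 at 3.35, 2.72, 4.10 and 2.74. Both were higher in macrophages. Map2k3os was higher in osteoclasts by 0.89 and 2.16, and the kinase gene Map2k3 by 0.59 and 1.30.

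For pseudogenes and their parents, over 22 pairs in wild-type cells and 21 in LysM-St18flox cells the osteoclast differences had r of 0.92 and 0.77, and the genotype differences 0.58 in macrophages and 0.69 in osteoclasts. Marcksl1-ps4 stood at 1.82, -0.88, 2.60 and -0.17 on the arrays in the same order, lower in osteoclasts by -2.71 and -2.77, and Marcksl1, which encodes an actin-binding protein, was lower by -2.91 and -2.98. Bambi-ps1 was lower by -2.08 and -1.93 and Bambi by -1.25 and -1.23. Gpr137b-ps, named after its values were seen, was higher in osteoclasts by 0.75 and 1.49, as was Gpr137b, by 0.74 and 1.48. Other pairs went apart in LysM-St18flox cells, Hmga2-ps1 at -2.47 with Hmga2 at -0.65 and Pdxk-ps at 1.03 with Pdxk at -0.15, also named after their values were seen. Probe sequences were not used here, so signal from parent and pseudogene cannot be told apart for these pairs.

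**Figure D5:**
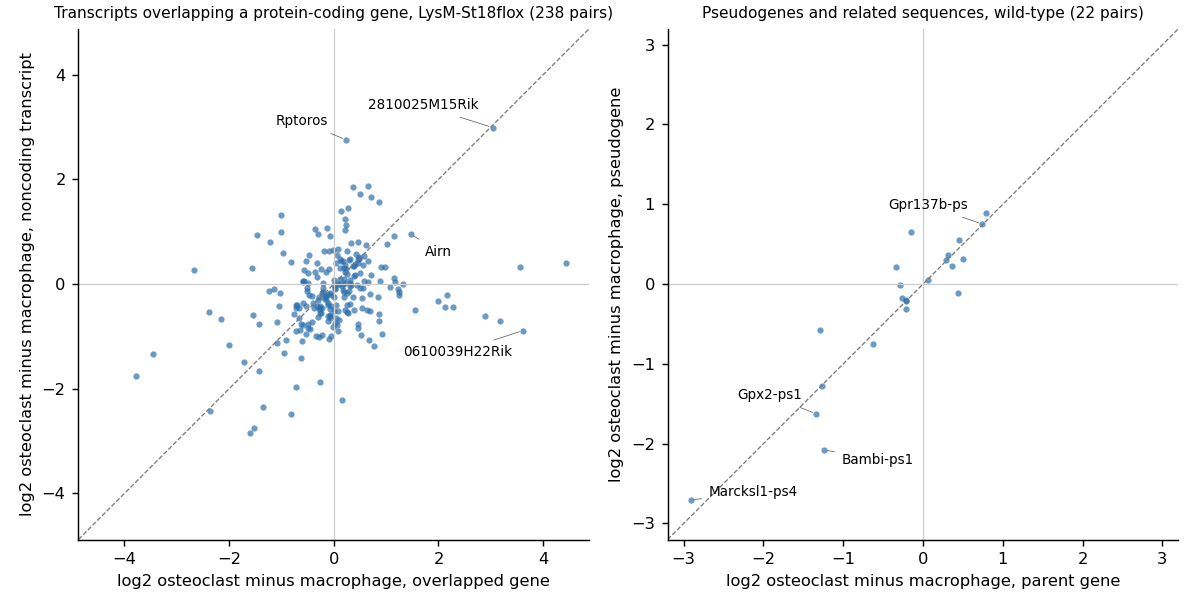
Osteoclast minus macrophage difference (log2) of a noncoding transcript (vertical) against that of the coding gene it overlaps, in LysM-St18flox cells (left, 238 pairs), and of a pseudogene against its parent, in wild-type cells (right, 22 pairs), with equality dashed. The left points scatter widely (r of 0.33) and the right ones lie nearer the dashed line (r of 0.92).

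A single array held the largest bound of all. 1700034G24Rik had a processed signal of 8495 in LysM-St18flox osteoclasts and of 3.47, 5.54 and 5.16 on the other arrays (wild-type macrophages and osteoclasts, then LysM-St18flox macrophages), from 1 spot each. The difference is at least 238-fold against wild-type osteoclasts and rests on that 1 spot. Of the genes with more than 1 member probe and a probe past 2-fold, all probes had the same sign in each comparison (4 of 4, 11 of 11, 3 of 3 and 8 of 8 genes in the order of the comparisons above), but all were past 2-fold for 2, 6, 0 and 2 of them.

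The cultures carried the markers of their labels. All 10 osteoclast markers were well above background on both osteoclast arrays, with a summed level of 9.58 and 9.95 against 3.70 and 3.47 in macrophages. All 8 macrophage markers were so on every array, with summed levels of 8.90 to 9.65. Fcgr1 (-4.30 and -4.39), Mertk (-2.30 and -4.22) and Mrc1 (-3.20 and -4.69) were lower in wild-type and LysM-St18flox osteoclasts. Adgre1 (-1.70) and Cd14 (-1.13) passed 2-fold in LysM-St18flox cells alone, and Csf1r, Cd68 and Itgam in neither genotype. Neutrophil markers (6 of 6 on every array) had summed levels of 3.69 and 3.90 in macrophages and 3.23 and 2.90 in osteoclasts, and B cell markers (at most 2 of 4) of 0.02 and 0.50 against -1.87 and -2.54, both lower in osteoclasts, as AW112010 and F630028O10Rik were. Their part in the results was not tested. The brighter St18 probe stood at 0.29 and 1.55 in the wild-type macrophages and osteoclasts and at -1.52 and 1.12 in the LysM-St18flox ones, while the other stood at -7.51, -5.67, -6.81 and -4.60 and passed the background limit on the LysM-St18flox osteoclast array alone. Where they lie relative to the loxP sites was not found in the labels, so they check no genotype. The array's 75th percentile of signal ran from 635.5 to 1159.3 and no member was saturated.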

How the data were processed

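RNA of 4 cultures was labelled and hybridised to 1-colour Agilent arrays that share 1 slide, with 1 array for each group. Per the submitters' processing notes the scans were read with Agilent Feature Extraction 11.0.1.1. Each deposited scan holds a background-subtracted intensity per spot (the processed signal), per the file headers, and flags for signal well above background, saturation and outliers. The authors' deposited value table holds log2 values of 30909 probes, 814 of them members, which follow the log2 of the scanner signals, with a median of 9.39 on each array; how the authors chose the probes is not known here.

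From these, spots of a probe without an outlier flag were averaged as log2 of the processed signal and each array's 75th percentile over non-control probes was subtracted. A probe was well above background when at least 0.5 of its spots were. A comparison used probes well above background on at least 1 of its arrays. Where 1 array was dim, the difference is a bound, written "at least", against the dim signal or, if higher, the dimmest signal that passed on that array, and bounds that pointed the wrong way gave no fold. Genes were named through RefSeq accessions in a table of assembly GRCm38.p6, which also gave neighbours and promoters. Its coordinates were not set beside the arrays' own mm9 positions.

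The members and lists were chosen with earlier results of these data known. Named members were, per comparison, the 8 with the highest and the 8 with the lowest measured differences of at least 2-fold (1 value above -3) and the 4 largest bounds each way, the 6 shared by both genotypes or cell types each way, the 5 most different responses each way, the 8 brightest, members past 2-fold in opposite directions, and the members of 5 lists; others are said to have been chosen after their values were seen. Alternatives were normexp background correction (limma 3.58.1, R 4.3.3, offset 50), centring on medians, quantile normalization, 2 other filters, the authors' value table, a 3-fold threshold and 1 probe per gene. The steps were tested on simulated data. Figures and counts used Python 3.11.15, numpy 2.4.6, pandas 2.3.3 and scipy 1.17.1.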

Additional observations from a re-analysis of the deposited data

Results flagged for a closer look

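5430425K12Rik moved past 2-fold in opposite directions between the genotypes in the 2 cell types, lower in LysM-St18flox macrophages by -1.17 and higher in LysM-St18flox osteoclasts by 1.05, so that its osteoclast response differed between genotypes by 2.22. The difference was not tested, since each group has 1 array. With normexp correction the genotype differences were -0.79 and 0.76, and in the authors' deposited table the macrophage value was -0.85. Of 932 members measured in both cell types it was the only 1 past 2-fold in opposite directions, beside 64 of 33427 probes of any kind.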

How the results depend on the processing

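No paired analysis was possible because each group has 1 array and no test was made. Counts below are members at least 2-fold higher and lower, in the order wild-type response, LysM-St18flox response, genotype in macrophages and genotype in osteoclasts. Normexp correction gave 15 and 21, 48 and 57, 10 and 20, and 7 and 18, with medians of -0.017, -0.054, -0.189 and -0.175, and 32 different responses. Centring on medians gave medians of 0.0 and 0.039 for the responses and 0.13 for the genotype in osteoclasts, where 63 were higher and 40 lower, and 69 different responses. Quantile normalization gave medians of -0.059 for the LysM-St18flox response and -0.001 for the genotype in osteoclasts, where 45 were lower. Requiring signal on all 4 arrays left 28 lower in the wild-type and 74 in the LysM-St18flox response, 26 and 21 in macrophages and 21 and 48 in osteoclasts. With no filter 80 were lower in the wild-type response, 79 higher in macrophages and 60 higher in osteoclasts, the LysM-St18flox response had a median of -0.196, and 244 responses differed. The authors' table gave 55 lower in the LysM-St18flox response with a median of -0.055, 31 and 16 in macrophages, 29 lower in osteoclasts with a median of 0.022, and 67 different responses. At 3-fold the counts were 13 and 20, 41 and 55, 11 and 8, and 6 and 14. The cause was not tested, except that fewer probes enter with signal on all 4 arrays or in the authors' table. Of 170 values of named members past 2-fold, 101 stayed past it under every alternative that gave a value, and 68 were below it with normexp correction, 6 with centring on medians and 4 with quantile normalization. Low signal limits most members, since dim values lie near the lowest signal counted on each array.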
